A study of Mus musculus with 4 samples.

Results

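Cd36, Msr1, Fabp4, Pparg, Plin2, Soat1, Nceh1, Lipa, Npc1 and Npc2 were read as the genes of lipid uptake, lipid droplets and lysosomal cholesterol handling. They were chosen by symbol and are 10 of the 33696 genes of the count matrices. Their UMIs, the tagged single transcripts of a droplet library, were summed per library over macrophages, monocytes, dendritic cells and B cells. The cells were gated on UMIs of lineage marker genes, none of which is among the 10.

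The cells came from biopsies of the livers of male C57BL/6J mice, 7 weeks old at the start, which all ate the FPC diet (fructose, palmitate, cholesterol and trans-fat). In the high cholesterol arm of 3 mice the diet held 1.25% cholesterol to week 24 (library P-HC24) and 0.05% from then to week 32 (I-HC32). In the low cholesterol arm of 3 mice it held 0.05% throughout (P-LC24 at week 24 and I-LC32 at week 32). Each library pooled 12 fine-needle aspiration (FNA) biopsies, 4 from each of 3 mice, and both arms were sampled again at week 32. Each condition was therefore 1 library, in which the mice cannot be told apart, and no test between conditions was possible. The ratio of P-HC24 to P-LC24 is called Prog and that of I-HC32 to I-LC32 is called Int. Intervals are exact 95% intervals, which cover counting error only and not the spread between mice.

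Macrophages take up fatty acids through CD36 and modified lipoproteins through scavenger receptors, and the fatty acid sensor PPARγ turns on several genes of that uptake. Surplus cholesterol is esterified and stored in droplets coated by perilipins. Cholesteryl esters that reach the lysosome are cut there, and the free cholesterol leaves through NPC2 and NPC1. In fatty liver, resident Kupffer cells and recruited monocyte-derived macrophages both carry such lipid.

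The libraries held between 50941106 and 89257239 UMIs, and between 4930 and 6978 cells of each were kept, 25359 in all. The gates took 1279 macrophages, 662 monocytes, 149 dendritic cells and 16476 B cells, together 73.2% of the kept cells. Values are given throughout in the order P-LC24, P-HC24, I-LC32, I-HC32, in which macrophages numbered 55, 481, 93 and 650. Of 33041 different barcode sequences 134 occurred in more than 1 library. The macrophages did not carry the profile of Kupffer cells. A list of 6 peritoneal macrophage genes (Gata6, Prg4, Alox15, Ltbp1, Serpinb2 and Icam2) summed to between 7258 and 10311 CPM, which is UMIs of a gene scaled to a fixed total of UMIs of the class, and a list of 6 Kupffer cell genes to between 21.3 and 68.9 CPM, with Clec4f and Cdh5 at 0 in P-HC24 and I-HC32. Whether these cells lay in liver tissue or in the peritoneal cavity was not tested, and the macrophage values here hold for cells of this profile. Macrophages with a UMI of at least 3 of the 6 peritoneal genes are called peritoneal-type here. They were 33, 444, 69 and 624 cells, or 60%, 92.3%, 74.2% and 96% of the gate, and 22, 37, 24 and 26 other macrophages remained. A level of the whole macrophage gate therefore also depends on this make-up, which differed between the low and high cholesterol libraries at both weeks.

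Promoter windows of RefSeq (GRCm38.p6, 250 bases before to 50 after a start) were matched for 7 of the 10 genes, 9 windows in all. Both strands were searched for AGGTCA, the half-site of nuclear receptors, for its direct repeat with 1 base between the copies, which PPARγ binds with RXR, and for TCACGTG, an E-box. AGGTCA was in 4 of the 9 windows, those of Plin2 and Cd36 and 2 of the 3 of Pparg, and in 16.3% of all 32851 windows. The direct repeat was in none of the 9 and in 0.0396% of all windows. TCACGTG was in the windows of Plin2 and Nceh1 and in 3.77% of all. A match describes letters and is no evidence of binding. The windows of Cd36 and Pparg are shown because these genes marked patrolling monocytes, and that of Plin2 because its level was higher at week 32 in all 4 classes. Capitals mark AGGTCA, its reverse complement TGACCT, or TCACGTG.
Plin2 (chr4:86670010-86670309, minus strand): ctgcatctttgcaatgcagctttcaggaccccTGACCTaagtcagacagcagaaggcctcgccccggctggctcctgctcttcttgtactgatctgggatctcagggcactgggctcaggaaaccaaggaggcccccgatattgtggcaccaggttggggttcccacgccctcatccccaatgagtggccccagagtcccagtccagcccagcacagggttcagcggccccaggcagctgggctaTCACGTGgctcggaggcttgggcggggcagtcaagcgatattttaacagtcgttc
Cd36 (chr5:17835847-17836146, minus strand): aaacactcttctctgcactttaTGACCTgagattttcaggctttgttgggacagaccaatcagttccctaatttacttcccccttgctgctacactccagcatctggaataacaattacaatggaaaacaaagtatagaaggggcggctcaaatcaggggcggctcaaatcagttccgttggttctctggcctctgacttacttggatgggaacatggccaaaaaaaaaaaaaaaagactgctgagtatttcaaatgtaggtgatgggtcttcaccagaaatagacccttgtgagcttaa
Pparg, first window (chr6:115360894-115361193, plus strand): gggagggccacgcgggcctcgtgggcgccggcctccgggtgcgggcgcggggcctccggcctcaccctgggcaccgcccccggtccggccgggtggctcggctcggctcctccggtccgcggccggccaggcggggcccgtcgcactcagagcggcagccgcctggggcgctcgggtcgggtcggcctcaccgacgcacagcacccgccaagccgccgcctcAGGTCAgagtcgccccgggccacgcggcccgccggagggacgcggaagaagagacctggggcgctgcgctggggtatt
Pparg, second window (chr6:115362099-115362398, plus strand): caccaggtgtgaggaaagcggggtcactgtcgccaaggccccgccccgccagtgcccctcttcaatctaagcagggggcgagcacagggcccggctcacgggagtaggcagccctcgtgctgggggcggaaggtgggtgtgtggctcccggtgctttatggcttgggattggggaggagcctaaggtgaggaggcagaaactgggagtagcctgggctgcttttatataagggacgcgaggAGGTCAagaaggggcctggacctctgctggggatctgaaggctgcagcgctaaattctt

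Among the uptake genes, Cd36 (chr5:17986432-18094067, minus strand, GRCm39, as are all gene positions here), the receptor for long-chain fatty acids and oxidised lipoproteins, stood at 491, 341, 376 and 370 CPM in macrophages. Monocytes had 293, 260, 152 and 327 CPM, dendritic cells 137, 35.8, 53.5 and 79.3 CPM, and B cells 10.7, 7.56, 10.4 and 9.11 CPM. This order held in all 4 libraries, and the ranges of neighbouring classes did not overlap. T cells, read as a class in which the myeloid genes should be near the level of free RNA, had 1.2, 0.62, 0.226 and 5.33 CPM. One T cell held 17 of the 33 UMIs of I-HC32, whose level without it was 2.59 CPM. One B cell held 96 of the 426 B cell UMIs of I-LC32.

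Msr1 (chr8:40034726-40095714, minus strand), which encodes scavenger receptor A, was at 455, 345, 435 and 386 CPM in macrophages and at 123, 82.8, 109 and 54.4 CPM in monocytes. Dendritic cells had 0, 0, 0 and 1 UMI, and a count of 0 allows up to 6.23, 6.33 and 3.82 CPM in the first 3 libraries. B cells had 0.592, 0.709, 0.707 and 1.97 CPM. Macrophages stood above monocytes in every library, and monocytes above the other classes, with no overlap of their ranges.

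Fabp4 (chr3:10268785-10273737, minus strand), a cytosolic carrier of fatty acids and a known PPARγ target, was at 1706, 1550, 887 and 1689 CPM in macrophages and at 123, 90, 24.4 and 106 CPM in monocytes. Dendritic cells had 3, 0, 18 and 4 UMIs. Macrophages held 84.3%, 94.8%, 90.7% and 97.4% of the Fabp4 UMIs of all kept cells. In B cells the level was 0.41, 4.23, 0.317 and 5.33 CPM, and in T cells 0.3, 4.34, 0.113 and 9.05 CPM. Both lymphocyte classes were high in the libraries with many macrophages, and the share of free macrophage RNA in these values was not tested.

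Pparg (chr6:115337675-115468268, plus strand), the gene of PPARγ, did not follow Fabp4. Monocytes had 315, 182, 82.7 and 159 CPM, and macrophages 104, 8.05, 35.2 and 3.06 CPM. Monocytes were 2.61% of kept cells and held 75.4%, 64.6%, 59.1% and 44.3% of the Pparg UMIs of the libraries. Dendritic cells had 13, 18, 2 and 17 UMIs, a range that overlapped macrophages, and B cells 0, 8, 1 and 12 UMIs. Pparg overlaps Gm44079 on the opposite strand.

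Among the droplet genes, Plin2 (chr4:86565912-86588459, minus strand), which coats lipid droplets, was at 329, 357, 409 and 487 CPM in macrophages and at 232, 206, 289 and 345 CPM in monocytes. Dendritic cells had 93.4, 143, 120 and 155 CPM, and B cells 4.46, 6.07, 6.34 and 10.2 CPM. Macrophages exceeded monocytes in each library, although the ranges of these classes overlapped. The ranges of monocytes, dendritic cells and B cells did not.

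Soat1 (chr1:156252095-156303864, minus strand), which esterifies cholesterol for storage, was highest in monocytes, at 225, 130, 133 and 107 CPM against 94.9, 60.4, 51 and 51.7 CPM in macrophages, with no overlap. Dendritic cells had 74.7, 31.6, 31.9 and 59.4 CPM, which overlapped macrophages, and B cells 41.3, 27, 29.8 and 30.3 CPM. Nceh1 (chr3:27236975-27338764, plus strand), a hydrolase of cholesteryl esters outside the lysosome, was at 46, 24.3, 41.9 and 37.5 CPM in monocytes and at 40.6, 23.8, 41.8 and 32.3 CPM in macrophages. Its ranges overlapped between all neighbouring classes, and B cells had 15.6 to 19.4 CPM.

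Among the lysosomal genes, Lipa (chr19:34469712-34522163, minus strand), the acid lipase that cuts cholesteryl esters, was at 165, 84, 116 and 76.1 CPM in macrophages and at 133, 96.2, 127 and 98.5 CPM in monocytes. Dendritic cells had 93.4, 61.1, 82.8 and 89.8 CPM and B cells 20.9, 22.5, 30.9 and 31.1 CPM. The 3 myeloid classes overlapped, and B cells lay below them. Npc2 (chr12:84801334-84820617, minus strand), the soluble carrier of cholesterol in the lysosome, was at 840, 1031, 952 and 1061 CPM in macrophages and at 742, 801, 963 and 847 CPM in monocytes, which overlapped. Dendritic cells had 511, 681, 631 and 701 CPM, and B cells 95.9, 152, 137 and 168 CPM. T cells had more Npc2 than B cells in each library, 362, 436, 350 and 393 CPM, so Npc2 was not a myeloid gene only.

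Npc1 (chr18:12322749-12369550, minus strand), the membrane partner of NPC2, was at 25.7, 16.2, 22.5 and 25.7 CPM in monocytes, 25.3, 11.4, 15.4 and 12.7 CPM in macrophages and 13.1, 9.8, 10.6 and 10.8 CPM in B cells. Its ranges overlapped between all neighbouring classes. Npc1 overlaps Rmc1 and Gm15956, and Npc2 overlaps Isca2, on the opposite strand.

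**Figure D1:**
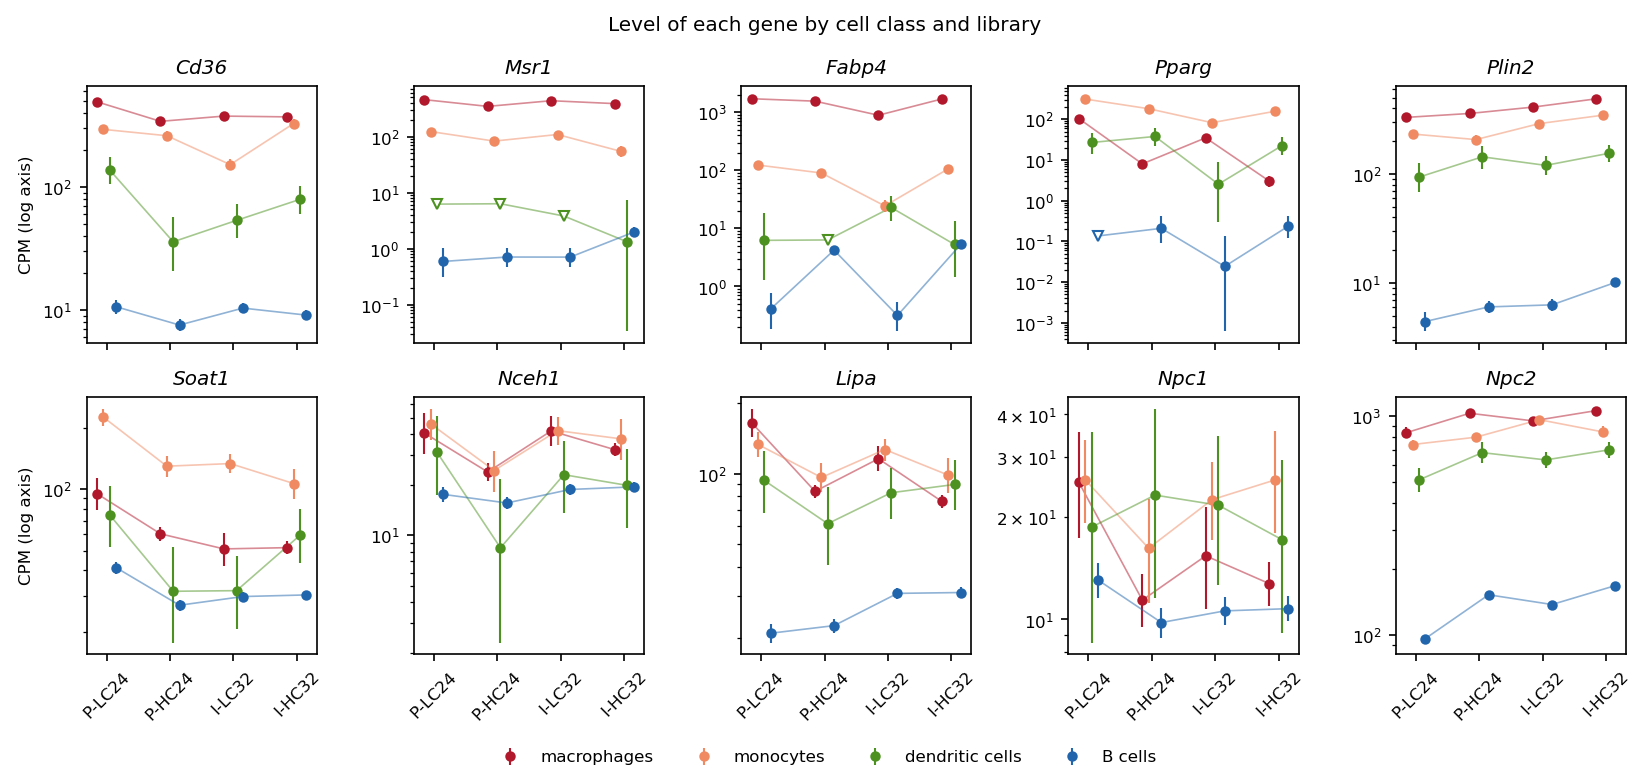
Level of each gene (CPM, log axis) by library, coloured by class, with exact 95% intervals; open triangles mark 0 UMIs, drawn at the level of 3 UMIs. Cd36, Msr1 and Fabp4 are highest in macrophages and Pparg and Soat1 in monocytes, while the classes overlap for Nceh1 and Npc1.

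A ratio was read where the gene was detected in 10% or more of the cells of one of the compared libraries and their sums reached 100 UMIs, and it was counted when past 1.2-fold. In macrophages all 10 genes passed the filter. In Prog 8 of 10 were past 1.2-fold, 1 higher and 7 lower, where 63.3% of all 7776 genes were, 17.2% higher and 46.1% lower. The median log2 ratio was -0.59 for the 10 and -0.22 for all genes. Relative to the median gene 2 of the 10 were past the fold on the high side and 6 on the low side. Of all 7776 genes 2368 were high and 2321 low on that scale, 60.3% in either direction. In Int 5 of 10 were past it, 1 higher and 4 lower, where 50.7% of 8620 genes were, 13% higher and 37.6% lower. The medians there were -0.10 and -0.16. Relative to the median gene 3 of the 10 were high and 2 low, where 1970 of all 8620 genes were high and 2006 low, 46.1% in either direction. In peritoneal-type cells 9 of the 10 passed the filter. In Prog 6 of these were past the fold, 1 higher and 5 lower, where 58.3% of genes were, 21.5% higher and 36.8% lower. In Int 4 were, 3 higher and 1 lower, where 46.9% of genes were, 13.9% higher and 33% lower. Counts of so few genes, from 1 library per condition, are a description and no result about the 10 genes as a group. Each gene is therefore described by its own values.

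Pparg had the lowest ratio of the 10, with log2 -3.69 (-4.09 to -3.30) in Prog and -3.52 (-4.09 to -2.97) in Int. The gene was found mostly in the other macrophages, at 505, 73, 168 and 51.5 CPM, and peritoneal-type cells had 5.72, 3.67, 8.95 and 0.966 CPM from 6, 38, 17 and 13 UMIs. Within peritoneal-type cells Pparg did not pass the filter, and its Prog ratio was -0.64 (-1.89 to 0.89). Within the other macrophages Prog was -2.79 (-3.29 to -2.31), from 130 UMIs in 22 cells and 51 UMIs in 37 cells. One cell held 36 of those 130 UMIs. Patrolling monocyte genes in the other macrophages summed to 179, 12.9, 85.2 and 25.7 CPM, high in the libraries in which Pparg was high. Their part in the Pparg values was not tested.

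Lipa had a Prog ratio of -0.97 (-1.19 to -0.75) and an Int ratio of -0.60 (-0.80 to -0.40) in the whole gate. Peritoneal-type cells had 81.1, 72.2, 88.4 and 72.2 CPM, with Prog -0.17 (-0.49 to 0.17) and Int -0.29 (-0.53 to -0.05). The other macrophages had 505, 258, 253 and 166 CPM, with Prog -0.97 (-1.30 to -0.63) and Int -0.60 (-1.03 to -0.18). The other macrophages had lower values in the high cholesterol libraries at both weeks. The peritoneal-type interval in Prog held 0, and without the cell with the most Lipa UMIs in each library, 18 of 85 in P-LC24, the peritoneal-type ratios were 0.05 in Prog and -0.25 in Int. The make-up of the other macrophages also differed between libraries. A list of 5 classical monocyte genes summed to 241, 1476, 993 and 1488 CPM in them, and the 6 Kupffer cell genes to 338, 90.1, 197 and 99.5 CPM, with Marco at 0 in all 4 libraries. The part of this make-up in the Pparg and Lipa ratios of the other macrophages was not tested.

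The other macrophages differed from peritoneal-type cells in several of these genes. Without the top cell of each library their Cd36 was at 728, 838, 489 and 815 CPM. This overlapped the patrolling monocytes described below, at 918, 793, 768 and 662 CPM. Within a library the Cd36 of the other macrophages was 2.22, 2.85, 1.85 and 2.49-fold that of peritoneal-type cells. Their Soat1 was 1.94, 1.99, 2.56 and 1.97-fold and their Lipa 6.22, 3.57, 2.86 and 2.31-fold. Npc1 was 3.83, 3.31, 2.64 and 3.58-fold higher. Fabp4 was 14.6, 57.8, 33.1 and 46.6-fold lower in them, and Msr1 1.7, 5.08, 1.57 and 3.46-fold lower. Some of these folds turned on single cells. Without the top cell of each kind Fabp4 was 23.3, 101, 52.4 and 123-fold lower, from 22, 11, 7 and 8 UMIs left in the other macrophages. Msr1 in I-LC32, where 1 cell held 53 of 111 UMIs, was then 2.67-fold lower, and Npc1 in I-HC32, where 1 cell held 11 of 24, was 2.28-fold higher. The intervals of the 24 ratios over all cells excluded equality, whereas that of Npc2 held it in all 4 libraries. The other macrophages were shallower in the low cholesterol libraries, with a median of 8733 and 12778 UMIs a cell against 18786 and 20248 in the high ones. Haemoglobin genes with Alas2 summed to 12349 and 26045 CPM in their low cholesterol libraries and to 320 and 66.9 CPM in the high ones, and the part of red cell RNA was not tested.

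**Figure D2:**
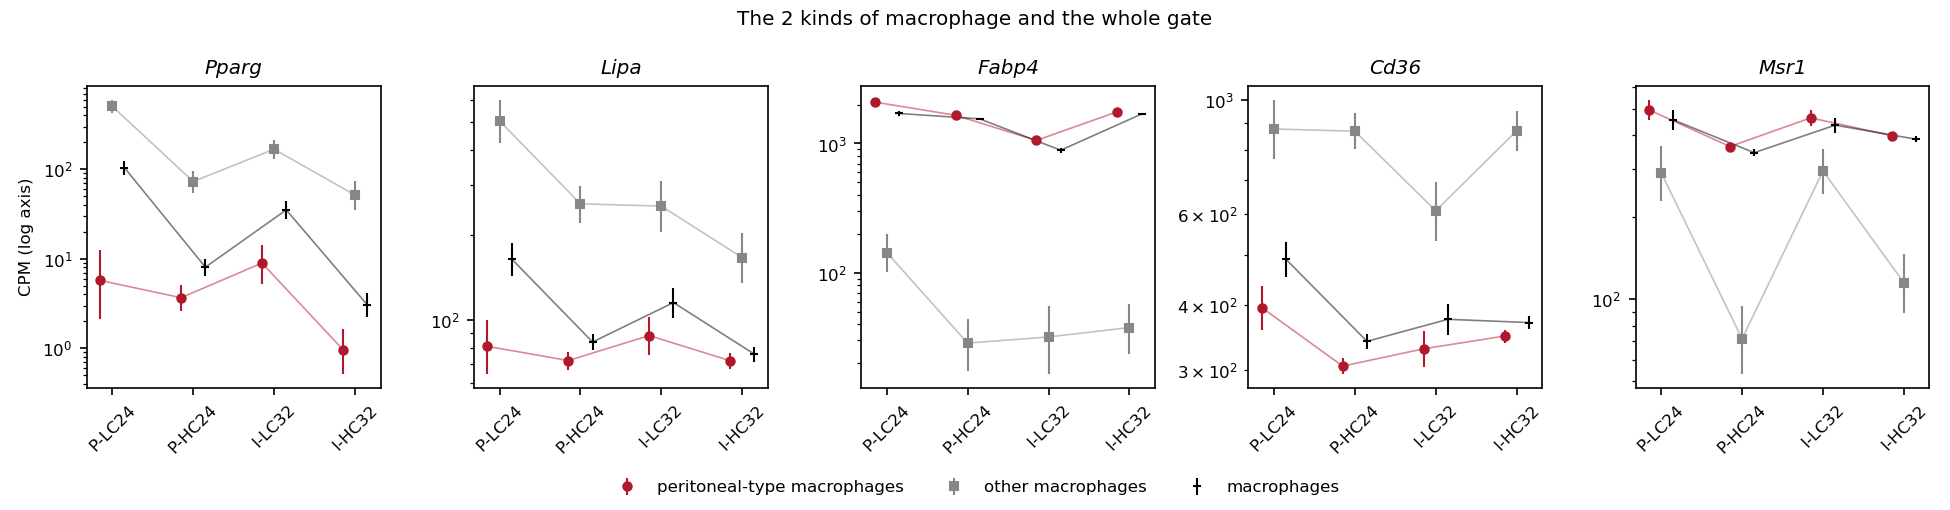
Levels (CPM, log axis, exact 95% intervals) of 5 genes by library in peritoneal-type macrophages, other macrophages and the whole gate. Pparg and Lipa of the whole gate lie between both kinds, nearer to the peritoneal-type level in P-HC24 and I-HC32, where those cells are 92.3% and 96% of the gate.

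Fabp4 in macrophages had a Prog ratio of -0.14 (-0.20 to -0.07), which is 0.08 relative to the median gene, and an Int ratio of 0.93 (0.86 to 1.00). Peritoneal-type cells had 2090, 1653, 1056 and 1761 CPM, with Prog -0.34 (-0.40 to -0.27) and Int 0.74 (0.67 to 0.80). The library that stood apart was I-LC32. The median level per peritoneal-type cell was 1733, 1576, 881 and 1639 CPM, so I-LC32 was also lowest in the median cell. Between weeks the ratio was -0.98 (-1.07 to -0.90) in the low cholesterol arm and 0.09 (0.06 to 0.12) in the high arm.

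Cd36 and Msr1 were lower in P-HC24 than in P-LC24, with log2 ratios of -0.53 (-0.65 to -0.40) and -0.40 (-0.53 to -0.27) in all macrophages and of -0.38 (-0.52 to -0.22) and -0.45 (-0.58 to -0.31) in peritoneal-type cells. The median gene of all macrophages was at -0.22 in Prog. Relative to it Msr1 was within 1.2-fold there and Cd36 was past it. One peritoneal-type cell of P-LC24 held 64 of the 415 Cd36 UMIs, and without the top cell of each library the peritoneal-type Cd36 ratio was -0.21, no longer past 1.2-fold. In Int Cd36 was at -0.02 (-0.12 to 0.09), or 0.14 relative to the median gene, and Msr1 at -0.17 (-0.27 to -0.07), or -0.01. Neither was past the fold at week 32.

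Soat1 had a Prog ratio of -0.65 (-0.93 to -0.36) and an Int ratio of 0.02 (-0.26 to 0.32). In peritoneal-type cells, at 80.1, 56.9, 40.5 and 49.7 CPM, these were -0.49 (-0.83 to -0.15) and 0.29 (-0.05 to 0.65). Nceh1 was at -0.77 (-1.20 to -0.32) and -0.37 (-0.69 to -0.03) in the whole gate and at -0.19 (-0.79 to 0.47) and 0.18 (-0.23 to 0.61) in peritoneal-type cells, where its Int ratio changed sign. One macrophage of I-LC32 held 22 of the 95 Nceh1 UMIs. Without the top cell of each library the whole-gate ratios were -0.68 and -0.02, the Int ratio no longer past 1.2-fold. Npc1 was at -1.15 (-1.71 to -0.55) in Prog, from 33 UMIs in P-LC24, and at -0.71 (-1.45 to 0.13) in peritoneal-type cells. For Nceh1 and Npc1 the peritoneal-type intervals held 0.

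Npc2 was the 1 gene past the fold on the high side in Prog, at 0.30 (0.21 to 0.39), and it was at 0.16 (0.09 to 0.22) in Int. Its peritoneal-type levels of 848, 1028, 960 and 1064 CPM gave 0.28 (0.18 to 0.38) and 0.15 (0.08 to 0.22). Plin2 was at 0.12 (-0.03 to 0.27) in Prog and 0.25 (0.15 to 0.35) in Int. In peritoneal-type cells, at 310, 351, 395 and 482 CPM, Plin2 was at 0.18 (0.01 to 0.35) and 0.28 (0.18 to 0.40). Both genes had the same sign in both comparisons and in both sets of cells. These sets are not independent, since peritoneal-type cells are most of the whole gate.

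**Figure D3:**
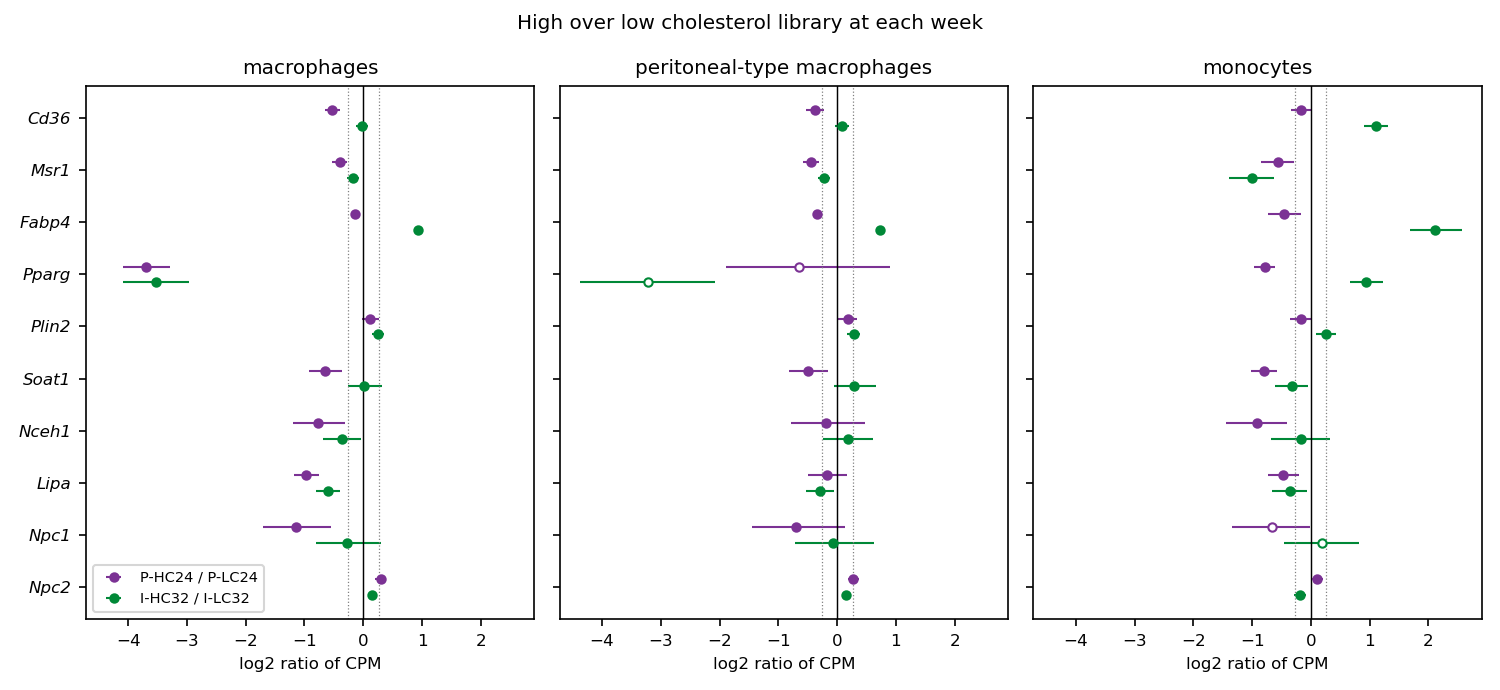
Log2 ratio of CPM, high over low cholesterol library, for each gene at week 24 (Prog) and week 32 (Int), with exact 95% intervals. Shown are all macrophages, the peritoneal-type macrophages among them, and monocytes. Open circles did not pass the filter and dotted lines mark 1.2-fold. Macrophage Fabp4 is at -0.14 and 0.93, and monocyte Cd36, Fabp4 and Pparg lie below 0 in Prog and above 0 in Int.

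Monocytes divided into classical cells, in which genes such as Ly6c2 and Ccr2 outweighed Ace, Treml4 and Cd300e, and patrolling cells, in which the reverse held. Patrolling cells live along the vessel wall, and classical cells enter tissue. Patrolling cells numbered 57, 69, 31 and 31, or 34.5%, 39.2%, 14.4% and 29.5% of monocytes. They had Pparg at 983, 736, 686 and 720 CPM against 84.7, 33.8, 26.8 and 48.4 CPM in the 105, 107, 184 and 74 classical cells. The ratio of the kinds was 11.6, 21.8, 25.6 and 14.9-fold within the libraries. Cd36 was at 957, 831, 818 and 747 CPM in patrolling and 58, 107, 91.3 and 244 CPM in classical cells, 16.5, 7.73, 8.95 and 3.05-fold. Fabp4 was at 362, 254, 227 and 291 CPM against 42, 45.9, 5.87 and 69.5 CPM. All 12 of these intervals excluded equality.

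Classical monocytes were higher in Npc2, by 3.75, 3.84, 4.47 and 2.27-fold, and in Msr1, by 6.09, 4.92, 2.54 and 3.44-fold, the last from 4 UMIs in patrolling cells of I-HC32, where it was 5.77-fold without the top cells. Plin2 was at 229, 203, 273 and 329 CPM in classical and 241, 216, 482 and 425 CPM in patrolling cells, and the kinds differed beyond counting error only at week 32. Soat1, Nceh1, Lipa and Npc1 had no order that held in all 4 libraries.

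Of the patrolling cells 52 of 57, 61 of 69, 28 of 31 and 26 of 31 had a Pparg UMI, and 48, 55, 24 and 21 had a Pparg and a Cd36 UMI. Of the classical cells 11, 12, 12 and 18 had both. In T cells, 0.254%, 0.59%, 0.413% and 3.38% had a Pparg UMI. The median depth was 8351, 5945, 5879 and 6103 UMIs in patrolling monocytes and 8025, 7281, 6610 and 6270 in T cells, which were the deeper class in 3 of the 4 libraries.

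In all monocytes 9 of the 10 genes passed the filter. In Prog 6 were past 1.2-fold, none higher and 6 lower, where 53% of 5331 genes were, 17.6% higher and 35.4% lower. The median was -0.47 for the 9 and -0.11 for all genes. In Int 6 were past the fold, 3 higher and 3 lower, where 40.5% of 5258 genes were, 18.4% higher and 22.1% lower. The 3 higher were Cd36 at 1.11 (0.91 to 1.31), Fabp4 at 2.12 (1.68 to 2.57) and Pparg at 0.94 (0.66 to 1.22), the genes of patrolling cells, whose share was lowest in I-LC32. Within patrolling cells these Int ratios were -0.13 (-0.44 to 0.18), 0.36 (-0.20 to 0.92) and 0.07 (-0.26 to 0.40), and each interval held 0. Within classical cells Cd36 was at 1.42 (1.16 to 1.68) and Pparg at 0.85 (0.30 to 1.39). Classical Fabp4 was at 5.87 CPM in I-LC32 and 69.5 CPM in I-HC32. Its Int ratio without the top cell of each library was 2.08, from 6 and 12 UMIs. The part of the patrolling share in the ratios of all monocytes was not tested.

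Cd36 of classical monocytes differed between the arms within that kind of monocyte. Its Prog ratio was 0.89 (0.51 to 1.28), opposite in sign to that of all monocytes, and it was higher in I-HC32 than in P-HC24 by 1.19 (0.91 to 1.47). A Cd36 UMI was in 20, 26, 30 and 31 classical cells, and without the cell with the most UMIs in each library the level was 45.8, 96.4, 70.3 and 212 CPM. Pparg of classical cells had a Prog ratio of -1.32 (-1.80 to -0.86) and that of patrolling cells -0.42 (-0.62 to -0.21). Peritoneal macrophage genes in the monocyte gate summed to 41.5, 110, 15.2 and 173 CPM, highest in P-HC24 and I-HC32, as classical Cd36 was, and their part was not tested.

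Fabp4 of classical monocytes rested on single cells. One cell held 21 of 63, 54 of 76, 8 of 14 and 67 of 79 UMIs, and without it the levels were 28.3, 13.5, 2.54 and 10.7 CPM. In all monocytes the ratios without that cell were -0.81 in Prog and 1.41 in Int, against -0.45 (-0.73 to -0.17) and 2.12 with it.

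Of the cholesterol genes of classical monocytes, Soat1, Nceh1 and Lipa were past the fold on the low side in Prog, Npc1 did not pass the filter, and Npc2 was at 0.06 (-0.05 to 0.16). Soat1 was at 246, 121, 128 and 95 CPM there, with Prog -1.03 (-1.28 to -0.77) and Int -0.43 (-0.76 to -0.11), and at 170, 162, 132 and 165 CPM in patrolling cells, with Prog -0.07 (-0.54 to 0.40). Nceh1 had a Prog ratio of -1.11 (-1.69 to -0.55) in classical cells. Lipa was at -0.84 (-1.16 to -0.52) in Prog in classical cells and at 0.57 (0.03 to 1.11) in patrolling ones. Msr1 of classical cells, at 157, 99.6, 115 and 61.6 CPM, was lower in both comparisons, -0.65 (-0.95 to -0.36) and -0.90 (-1.30 to -0.52). Npc2 of patrolling cells, at 243, 248, 232 and 411 CPM, had an Int ratio of 0.83 (0.32 to 1.35). Whether classical and patrolling cells differ in these ratios was not tested.

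**Figure D4:**
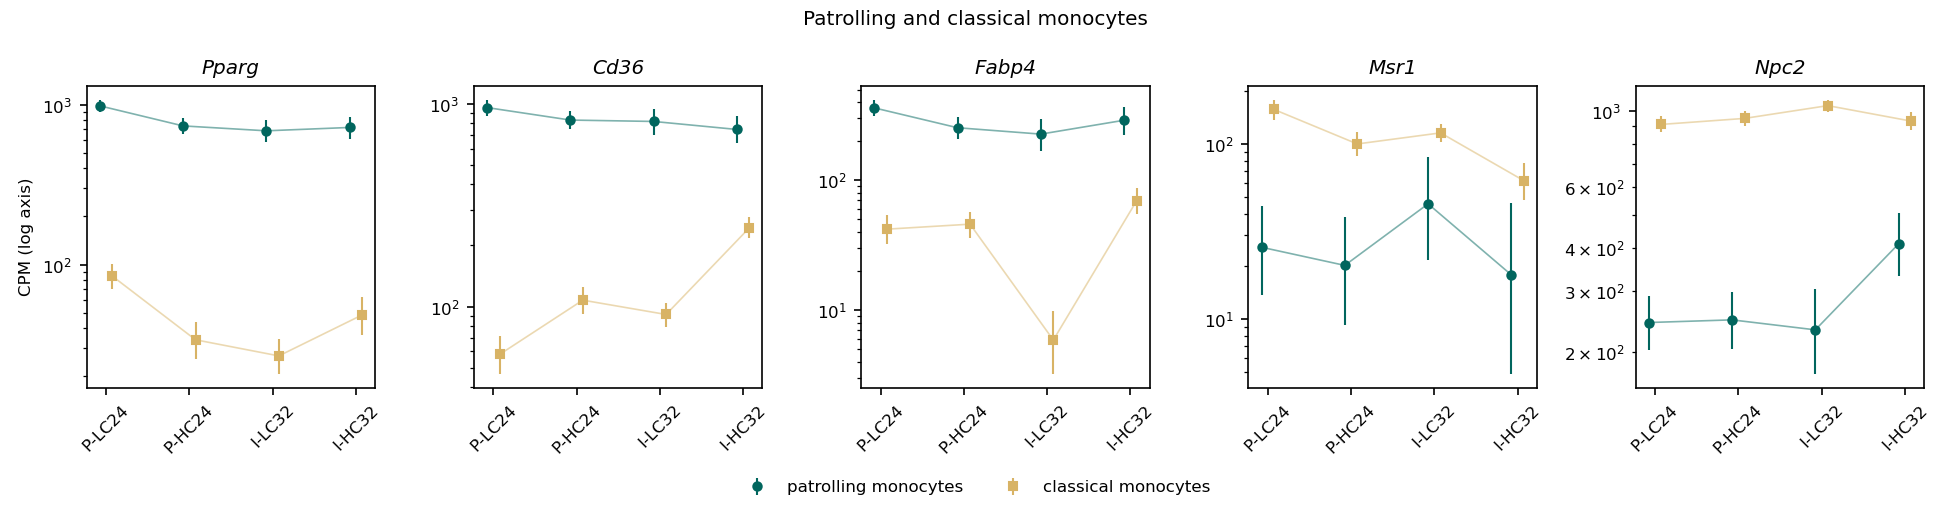
Levels (CPM, log axis, exact 95% intervals) of 5 genes by library in patrolling and classical monocytes. Pparg, Cd36 and Fabp4 are higher in patrolling cells and Msr1 and Npc2 in classical cells in all 4 libraries, and classical Cd36 is highest in I-HC32, at 244 CPM.

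Plin2 and Npc2 were higher at week 32 than at week 24 in both arms of all 4 classes. For Plin2 the ratio of I-HC32 to P-HC24 was 0.45 (0.39 to 0.50) in macrophages, 0.74 (0.55 to 0.93) in monocytes, 0.11 (-0.33 to 0.56) in dendritic cells and 0.75 (0.52 to 0.97) in B cells. The ratio of I-LC32 to P-LC24 was 0.31 (0.15 to 0.48), 0.32 (0.15 to 0.49), 0.36 (-0.17 to 0.90) and 0.51 (0.17 to 0.86), the last below the filter. Patrolling monocytes had 0.97 (0.55 to 1.40) in the high and 1.00 (0.61 to 1.38) in the low arm. Relative to the median gene, whose largest shift was 0.22 in B cells of the high arm, Plin2 was above 0 in each of these except dendritic cells of the high arm, at -0.02. Npc2 relative to the median gene was below 0 in macrophages, dendritic cells and B cells of the high arm, at -0.03, -0.09 and -0.08. Week, age and library cannot be told apart in these ratios, and in the high arm the fall of dietary cholesterol from 1.25% to 0.05% cannot be told apart from them either. Single cells weighed on Plin2 in the low arm. In I-LC32 1 classical monocyte held 112 of 652 UMIs, and 1 follicular-type B cell 25 of 70. Without the top cell of each library classical monocytes had 217 and 228 CPM, and patrolling ones 224 and 418 CPM. Follicular-type B cells then had 4.63 and 4.55 CPM, and B-1-type cells 3.1 and 6.1 CPM. B-1-type cells were 12.4% of B cells in P-LC24 and 28.1% in I-LC32. The part of this make-up was not tested.

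In B cells 4 of the 10 genes passed the filter in Prog and 6 in Int. In Prog Npc2 was at 0.67 (0.60 to 0.74) and Soat1 at -0.61 (-0.74 to -0.48), 2 of 4 past the fold, where 59.5% of 6635 genes were, 15.5% higher and 44.1% lower. The median gene was at -0.20. In Int Plin2 was at 0.68 (0.46 to 0.90) and Npc2 at 0.29 (0.24 to 0.34), 2 of 6 past it, where 20.3% of 7535 genes were, 13.1% higher and 7.15% lower. Relative to the median gene 1 of the 6 was past it, where 19.6% of all genes were. With no limit on other lineages the count was 0, with the filter applied anew. All 54 ratios recomputed over the 4 classes in that setting, Plin2 and Npc2 of B cells among them, stayed within their counting intervals. B-1-type cells, the innate-like B cells, were 12.4%, 25.7%, 28.1% and 37.2% of B cells. Within a library they had 1.76, 1.92, 1.45 and 1.6-fold the Npc2 and 2.45, 2.67, 2.67 and 2.04-fold the Lipa of follicular-type cells. Npc2 in Prog was still 0.48 (0.37 to 0.60) within B-1-type and 0.35 (0.21 to 0.50) within follicular-type cells, and Soat1 was -0.61 (-0.87 to -0.35) and -0.44 (-0.66 to -0.22). T cells had the same directions in Prog, Npc2 at 0.27 (0.19 to 0.35) and Soat1 at -0.59 (-0.91 to -0.27).

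Dendritic cells numbered 26, 30, 47 and 46, and 2 of the 10 genes passed the filter in Prog and 4 in Int. In Prog Plin2 was at 0.62 (0.05 to 1.19) and Npc2 at 0.42 (0.17 to 0.66), both past the fold, where 69.9% of 1450 genes were, 29.2% higher and 40.7% lower. In Int Plin2 was at 0.37 (-0.04 to 0.78) and Cd36 at 0.57 (-0.03 to 1.17), 2 of 4 past it, where 42.3% of 2412 genes were, 22% higher and 20.4% lower. One cell held 50 of the 60 Cd36 UMIs of I-HC32, and without the top cell of each library the Cd36 ratio was -1.68. Cd36 and Soat1 did not pass the filter in Prog, at -1.94 (-2.80 to -1.15) from 66 and 17 UMIs and at -1.24 (-2.22 to -0.34) from 36 and 15 UMIs.

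Other genes of the pathway were read in macrophages from lists of 12 uptake, 17 droplet, 12 nuclear receptor and 24 lysosomal genes. In Prog the counts past 1.2-fold, higher and lower, were 2 and 5 of 9 uptake genes that passed the filter, 2 and 2 of 10 droplet genes, 1 and 4 of 9 nuclear receptor genes and 4 and 8 of 22 lysosomal genes, where 17.2% of all genes were higher and 46.1% lower. In Int they were 2 and 3 of 9, 3 and 3 of 10, 1 and 2 of 8, and 5 and 6 of 22, where 13% of all genes were higher and 37.6% lower. In peritoneal-type cells the lysosomal genes had 7 and 3 of 22 in Prog, where 21.5% of all genes were higher and 36.8% lower, and 5 and 5 of 22 in Int, where 13.9% were higher and 33% lower. Counts this small are given as a description and not as a result about the lists.

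Among uptake genes, Lpl, which frees fatty acids from lipoproteins, was at 700 CPM in P-LC24 and 165 CPM in P-HC24, a ratio of -2.09 (-2.20 to -1.97), and at -1.38 (-1.50 to -1.26) in Int. In peritoneal-type cells, at 266 and 116 CPM at week 24 and 205 and 119 CPM at week 32, it was -1.19 and -0.78, and both intervals excluded 0. Olr1, a receptor for oxidised lipoprotein, was at 1.17 (0.93 to 1.43) and 1.12 (0.95 to 1.30), and at 0.94 and 0.93 in peritoneal-type cells. Lpl and Olr1 kept their directions in both comparisons and both sets of cells, which are not independent, since peritoneal-type cells are most of the gate. The scavenger receptor gene Stab1 was at -1.95 in Prog.

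Among droplet genes, Hilpda, an inhibitor of triglyceride lipolysis, was at 40.9 and 102 CPM at week 32, an Int ratio of 1.32 (1.02 to 1.64), and at 1.24 in peritoneal-type cells. Dgat1, which makes triglyceride, was at 0.74 (0.07 to 1.48), from 20 UMIs in I-LC32. Bscl2 was at -0.35 (-0.61 to -0.07) and Acsl1 at -0.52 (-0.94 to -0.08). In Prog the lipase gene Pnpla2 was at 0.53 (0.04 to 1.08), from 35 UMIs in P-LC24, and Acsl4 at -0.28 (-0.50 to -0.05). Acsl1 and Acsl4 activate fatty acids.

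Among nuclear receptor genes, Nr1h3, which encodes the oxysterol receptor LXRα, was at -2.78 (-3.33 to -2.21) in Prog in the whole gate. This came from 51 UMIs in the 55 cells of P-LC24 and 63 UMIs in the 481 cells of P-HC24. The part of the differing make-up of the gate in this ratio was not tested. Rxra, the partner of PPARγ, was at -0.94 (-1.34 to -0.52), and at -0.98 in peritoneal-type cells. Ncor1 and Ncoa1, a corepressor and a coactivator, were at -0.24 and 0.16 in Int. Among lysosomal genes the protease gene Lgmn was at -0.76 (-0.92 to -0.60) in Prog and at 0.28 (0.03 to 0.54) in peritoneal-type cells, opposite in sign. Osbp, a sterol carrier, was at -0.95, and Hexa, a lysosomal glycosidase gene, at 0.58. In Int Tfeb, a regulator of lysosomal genes, was at -0.88, Gramd1b at -0.77, Scarb2 at 0.45 and Cd63 at 0.58.

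Likeness was read as Pearson's r of log2(CPM + 1) over the 16 values of 4 classes in 4 libraries, among 14110 genes. The points share libraries and differ mostly by class, so r is a description. Fabp4 was most like Tcn2, Mfsd5 and Cxcl2 (r = 0.96 each), and Cd36 most like Pla2g4a, Rxra and Pkp4 (r = 0.98 each). Plin2 was most like App, Nlrp3 and Anxa4 (r = 0.99 each) and Lipa like Gm56862, Nrp1 and Slc15a3 (r = 0.97 each). Npc2 was most like Tyrobp (r = 1.00), Cd68 and Mcemp1 (r = 0.99 each). Among the 10 genes Plin2 and Npc2 were the closest pair, at r = 0.99, and Fabp4 and Pparg were at r = 0.42.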

How the data were processed

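Single-cell RNA from pooled liver FNA biopsies was sequenced as 4 droplet libraries, 1 per condition. The authors made the deposited raw UMI count matrices with Cell Ranger 9.0.1 on GRCm39; the ambient RNA correction, cell filters and clustering described for the study are not in those counts, so cells were filtered and gated anew and may differ from the study's annotation. Cells with at least 500 UMIs, at least 300 genes and at most 10% mitochondrial UMIs were kept, and the highest Scrublet scores (0.8% per 1000 cells, scanpy 1.11.5) were removed as doublets. A cell took the class whose marker list had the highest sum, with at least 5 UMIs from at least 3 genes and at most 30% of that sum in a list of the other lineage. Counts were summed per class and library and divided by all UMIs of the class. Ratios have exact intervals (scipy 1.17.1), and no test was run because each condition had 1 library. The UMIs of a class limit precision, most of all in dendritic cells, patrolling monocytes and the macrophages that were not peritoneal-type, whose sums were between 220164 and 784904 UMIs. Alternatives were 23 planned and 3 added after seeing the data, among them the peritoneal-type macrophages; TMM factors came from edgeR 4.0.16 on the counts. The 10 genes, the marker and pathway lists and the alternatives were chosen with earlier results of these data known. All 10 genes were named. Of each pathway list, up to 2 genes with the highest and 2 with the lowest macrophage ratio were named in Prog and in Int, if they passed the filter and the interval excluded 0; some genes this rule names are not reported here. The 3 most alike genes were named for Fabp4, Cd36, Plin2, Lipa and Npc2. The scripts were tested on simulated data.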

Additional observations from a re-analysis of the deposited data

Results flagged for a closer look

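Some genes had ratios of opposite sign at week 24 and week 32, with both intervals clear of 0. Whether the weeks differ was not tested, since each condition had 1 library. In macrophages Fabp4 was at -0.14 in Prog, or 0.08 relative to the median gene, and at 0.93 in Int. In monocytes Cd36 was at -0.17 and 1.11, Fabp4 at -0.45 and 2.12, Pparg at -0.79 and 0.94, and Npc2 at 0.11 and -0.19. The median gene of monocytes was at -0.11 in Prog and -0.03 in Int. Monocyte Cd36 in Prog and Npc2 in both comparisons were within 1.2-fold. The share of patrolling cells among monocytes was 34.5%, 39.2%, 14.4% and 29.5% in the order P-LC24, P-HC24, I-LC32, I-HC32.

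Signal was also found in cells outside the 4 classes. T cells had Cd36 at 5.33 CPM in I-HC32, Fabp4 at 4.34 CPM in P-HC24 and 9.05 CPM in I-HC32, and Pparg at 15.4 CPM in I-HC32, each above the low cholesterol library of the same week. One T cell held 17 of the 33 Cd36 UMIs, and without it the level was 2.59 CPM. The 134 neutrophils of P-HC24 had Cd36 at 65.9, Msr1 at 125, Fabp4 at 397, Lipa at 46.9 and Npc2 at 351 CPM. All Cd36, Msr1 and Fabp4 UMIs of those neutrophils lay in at most 14 of the cells for each gene.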

How the results depend on the processing

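Of 959 ratios recomputed under the alternatives, 822 moved by less than their counting interval, 131 moved by more, and 6 that were past 1.2-fold with an interval clear of 0 changed sign. Of 164 counts of genes past the fold, 134 stayed within 1.5 times the reported count. Another 51 that were within 1.2-fold or had an interval that held 0 also changed sign. Among these 51, macrophage Fabp4 in Prog was at 0.09 with TMM factors and 0.21 as the mean of per-cell CPM, monocyte Cd36 in Prog at 0.89 in classical cells, monocyte Npc2 in Int at 0.83 in patrolling cells, and dendritic Cd36 in Int at -1.68 without the top cell of each library. The 6 changed sign where only a part of the class was read. In Int, macrophage Nceh1 was at 0.067 in macrophages with a Gata6 UMI and 0.18 in peritoneal-type macrophages. Its ratio in all macrophages without the top cell of each library was -0.02. In monocytes Fabp4 in Prog was at 0.13 in classical cells alone, and in patrolling cells alone Lipa in Prog was at 0.57, Cd36 in Int at -0.13 and Soat1 in Int at 0.33. One classical cell held 54 of the 76 Fabp4 UMIs of P-HC24. Without the top cell of each library that ratio was -1.07, the sign of all monocytes. With a limit of 1.5-fold the counts were 5 in Prog and 3 in Int for macrophages, 3 in Prog for monocytes, 1 in Prog and 0 in Int for dendritic cells and 1 in Int for B cells. Macrophages with a Gata6 UMI gave 3 in Int, and patrolling monocytes 3 in Prog and 2 in Int. In dendritic cells a filter of 20 UMIs gave 7 in Prog and 5 in Int, no filter 8 and 6, no scaling 1 in Prog, and a mitochondrial limit of 20% 1 in Int. In B cells a filter of 20 UMIs gave 6 in Prog and 4 in Int, and no filter 6 and 5. The B cell count in Int was 1 with a mitochondrial limit of 20%, without immunoglobulin, haemoglobin and mitochondrial genes, with TMM factors, with median-of-ratios factors, relative to the median gene, in B-1-type cells and without shared barcodes. It was 0 with no limit on other lineages and in follicular-type cells, 6 with no scaling and 5 with free RNA subtracted. With no limit on other lineages and without shared barcodes the filter was applied anew. All 54 ratios of each of these settings stayed within their counting intervals. The cause was not tested. No paired analysis was possible because each condition had 1 library and the pooled mice cannot be told apart. Few UMIs limit dendritic cells, patrolling monocytes and the other macrophages most among the cells compared.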

Other observations

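Pparg in T cells was looked at after its values were seen. T cells had 0.9, 2.63, 2.03 and 15.4 CPM in the order P-LC24, P-HC24, I-LC32, I-HC32, and 2, 5, 5 and 30 cells with a UMI. In I-HC32 these 30 of 888 T cells held 95 Pparg UMIs, 19.5% of the Pparg UMIs of the library. Of the 30, 28 had a UMI of Gata3, the transcription factor of type 2 lymphocytes, 25 of Il1rl1, the receptor for interleukin 33, 18 of Areg and 13 of Klrg1, and none had Foxp3, Cd8a, Ace or Treml4. Of the other 858 T cells 28.1% had Gata3, 2.68% Il1rl1, 3.15% Areg and 3.26% Klrg1. Rora was in 10 of the 30 and in 39.9% of the others, and Cd4 in 14 and 29.6%. Il7r was in 30 and 87.2%, and Il13 in 3 and 0.233%. Il5 was in 0 of the 30 and in 0.117% of the others. The median depth was 10091 UMIs in the 30 cells and 6200.5 UMIs in the others. A count of 0 of 30 allows up to 11.6% of cells with a UMI of Ace or of Treml4, genes of patrolling monocytes, and sets no limit on cells that express them.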
